A study of Mus musculus with 4 samples.

Results

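The genes described here are 8 genes of mucosal defence, the secretoglobins Scgb1a1, Scgb3a1, Scgb3a2 and Scgb1c1 with Retnla, Pigr, Reg3g and Muc1, out of 27998 genes in the deposited tables. All 8 were found by symbol. They were chosen by their levels in the same cells, with earlier results of these libraries in view, so their values are given as a description and carry no test. On build GRCm38 (GENCODE M21) they are single genes on 8 chromosomes: Scgb1a1 at chr19:9083636-9087958 (minus strand), Scgb3a1 at chr11:49663610-49665118, Scgb3a2 at chr18:43764289-43767399, Scgb1c1 at chr7:140845547-140846769, Retnla at chr16:48842551-48844461, Pigr at chr1:130826684-130852249, Reg3g at chr6:78466269-78468872 (minus strand) and Muc1 at chr3:89229057-89233381. Each gene was followed in 2 classes of cells: cells in which Sftpc, the surfactant protein C gene of alveolar type 2 (AT2) cells, made up 5% or more of the unique molecular identifiers (UMIs), called Sftpc-high cells, and all remaining cells, called other cells.

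The study sorted lung cells of Sftpc-creER;Rosa26-mTmG mice and sequenced them one by one with the 10x Genomics 3' kit. In this strain tamoxifen activates a Cre recombinase made from the Sftpc promoter, so cells that use this promoter, and their descendants, turn on membrane GFP. All mice had received tamoxifen. Cells with GFP were sorted after those with CD45, a leukocyte protein, or CD31, an endothelial protein, had been gated away. Each group was 1 library made from 3 pooled mice: 12-month-old mice given bleomycin, 3-month-old mice given bleomycin, 12-month-old mice given PBS and 3-month-old mice given PBS. Bleomycin (0.8 U/kg, a drug that injures the alveolar epithelium) or PBS was delivered into the trachea, and cells were taken at day 30 after bleomycin and at day 0 for PBS. Treatment and day therefore cannot be told apart. With 1 library a group there is no spread between replicates, and every interval below covers counting error only.

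Secretoglobins are small secreted proteins of mucosal surfaces. In the mouse lung Scgb1a1, also called CC10, is the main secreted product of club cells of the conducting airways, and a subset of cells near the end of the airways uses both Scgb1a1 and Sftpc. Scgb3a1 and Scgb3a2 are airway secretoglobins, and Scgb1c1 is a further family member. Retnla (RELM-alpha) is a secreted resistin-like protein of mouse type 2 immunity that IL-4 and IL-13 induce through STAT6. Pigr, the polymeric immunoglobulin receptor, carries dimeric IgA across epithelium, Reg3g is a secreted lectin that kills Gram-positive bacteria at the gut surface, and Muc1 is a membrane mucin of the apical surface that AT2 cells carry.

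The upstream sequences of 3 members are shown because these 3 differed between the libraries in Sftpc-high cells and stood above free RNA there in both 12-month libraries, as described below; they were picked after their values were seen. The RefSeq promoter table of build GRCm38.p6 matched 6 of the 8 members, without Scgb1a1 and Scgb3a2. Each run below gives the 250 bases before the RefSeq start, 5' to 3' on the gene's plus strand, with matches to the motifs searched in capitals. The Retnla run lies at chr16:48842359-48842608, the Scgb1c1 run at chr7:140845315-140845564 and the Pigr run at chr1:130826434-130826683.
Retnla: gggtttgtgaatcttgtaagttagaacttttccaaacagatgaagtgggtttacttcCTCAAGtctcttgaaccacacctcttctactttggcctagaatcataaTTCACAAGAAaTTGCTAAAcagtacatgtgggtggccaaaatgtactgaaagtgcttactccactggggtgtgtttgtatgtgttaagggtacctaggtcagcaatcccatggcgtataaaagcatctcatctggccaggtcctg
Scgb1c1: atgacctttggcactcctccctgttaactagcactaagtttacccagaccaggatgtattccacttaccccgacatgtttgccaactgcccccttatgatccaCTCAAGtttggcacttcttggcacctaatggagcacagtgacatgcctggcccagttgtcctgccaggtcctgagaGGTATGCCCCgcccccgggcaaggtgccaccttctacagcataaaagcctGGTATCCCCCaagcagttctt
Pigr: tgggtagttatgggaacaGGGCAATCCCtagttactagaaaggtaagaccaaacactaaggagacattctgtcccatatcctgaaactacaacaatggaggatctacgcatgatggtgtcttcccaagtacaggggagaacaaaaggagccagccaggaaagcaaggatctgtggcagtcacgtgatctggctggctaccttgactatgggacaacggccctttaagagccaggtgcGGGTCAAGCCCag
The motifs were searched as plain letters on both strands: TGTTTAC (FOXA), CTCAAG (NKX2-1), TTC and GAA with 4 or 3 bases between them (STAT), TTGCNNAA (C/EBP), GGG and CC with 5 bases between them (NF-kB), and GAAA repeated after 2 bases (interferon-stimulated response element). In the Retnla run CTCAAG lay 193 to 188 bases before the start, the STAT pattern with 4 bases between lay 145 to 136 bases before it, and a TTGCNNAA match followed at 134 to 127. Over all 32851 promoters of this length, 13.3% held CTCAAG, 5.85% held the STAT pattern with 4 bases between, 7.02% that with 3, and 9.56% held TTGCNNAA. In the Scgb1c1 run CTCAAG lay 147 to 142 bases before the start and the NF-kB pattern matched on the minus strand at 71 to 62 and 21 to 12. In the Pigr run the NF-kB pattern matched at 232 to 223, and near the start at 13 to 4 on the plus strand and 12 to 3 on the minus strand, where the matches overlap. The NF-kB pattern is loose and 45.8% of promoters held it. TGTTTAC was in 3.17% of promoters and the interferon pattern in 2.98%, and neither was found in these 3 runs. The Muc1 run held none of the motifs.

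In all, 10756 of 10911 barcodes passed the filter of 500 genes and at most 20% mitochondrial UMIs, 9627 of them Sftpc-high, and 68 barcodes occurred in more than 1 library. Total counts were 36960380 in the 12-month bleomycin library, 23379893 in the 3-month bleomycin library, 14214212 in the 12-month PBS library and 11381566 in the 3-month PBS library. Sftpc-high cells were 81.9%, 87.6%, 93.6% and 96.4% of kept cells in the same order, with median depths of 12520, 8552, 5137.5 and 4563.5 UMIs. All 8 AT2 markers of the list used were detected in the Sftpc-high cells of every library. The other cells numbered 543, 325, 175 and 86. They included 65, 71, 29 and 8 barcodes with Cyp2f2, the club cell cytochrome P450, at 0.1% of UMIs or more. A further 286, 85, 61 and 18 were leukocyte or endothelial barcodes, which passed the limit for markers of those cells and not those for Cyp2f2 or ciliated cell genes. Counts below those limits remained: in 12-month bleomycin these barcodes held 775 counts of the 8 club markers and 243 of the 8 ciliated markers. Leukocytes and endothelium are not known to make airway secretoglobins, so these barcodes served as the measure of free RNA. Macrophages can make Retnla, so for Retnla their level may hold more than free RNA. Their median depths were 5971, 3489, 2241 and 1825.5 UMIs, below those of Sftpc-high cells. Sftpc itself reached 12704, 12035, 10652 and 13458 CPM in them, where CPM is a gene's counts scaled to a common total for each summed profile. Below, separated from free RNA means separated by CPM. Where each barcode holds an equal number of free UMIs, the shallower barcodes show a higher CPM of them. A level not separated by CPM may therefore still hold more than free RNA, and UMIs per barcode were not compared. The 7 leukocyte markers summed to 162, 70.8, 80.4 and 54.8 CPM in Sftpc-high cells, with Ptprc at 0 in the 3-month PBS library. The part of leftover leukocytes in the member values was not tested.

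**Figure D1:**
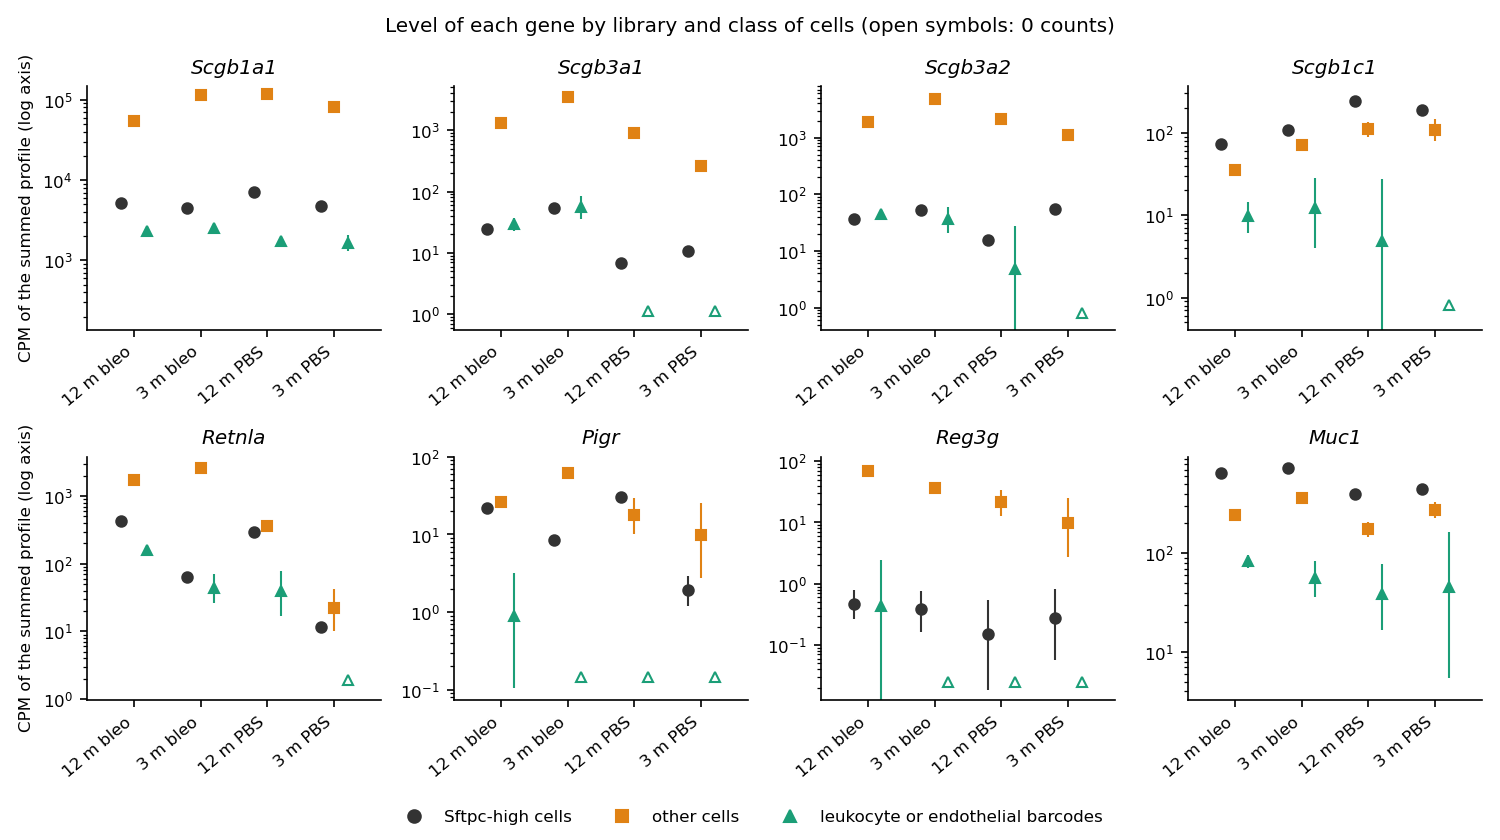
Level of each gene (CPM of the summed profile, log axis) in 4 libraries for Sftpc-high cells (black), other cells (orange) and leukocyte or endothelial barcodes (green); vertical lines are 95% Poisson intervals, open symbols stand for 0 counts and have no height on the scale, and lines cut by the axis run lower. Scgb3a1 and Scgb3a2 stood far higher in other cells than in Sftpc-high cells, while Muc1 and Scgb1c1 were higher in Sftpc-high cells in all 4 libraries.

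Scgb1a1 was detected in nearly every Sftpc-high cell, but also in nearly every leukocyte or endothelial barcode. Among Sftpc-high cells, those of the 12-month PBS library had the most of it. In Sftpc-high cells it stood at 5183 CPM in 12-month bleomycin, 4516 CPM in 3-month bleomycin, 7176 CPM in 12-month PBS and 4774 CPM in 3-month PBS. The leukocyte or endothelial barcodes of the same libraries held 2354, 2504, 1726 and 1651 CPM. Sftpc-high cells thus carried 2.20-fold (2.14 to 2.26), 1.80-fold (1.70 to 1.92), 4.16-fold (3.75 to 4.63) and 2.89-fold (2.30 to 3.69) the level of these barcodes. In 12-month bleomycin 1 of these barcodes stood far above the rest, as given below. The level of these barcodes there may therefore hold more than free RNA, and the ratio without that barcode was not computed.

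Much of the excess in Sftpc-high cells sat in few cells. The 1% of Sftpc-high cells with the most Scgb1a1 held 34.0%, 25.9%, 23.4% and 50.5% of its counts in 12-month bleomycin, 3-month bleomycin, 12-month PBS and 3-month PBS. Without those cells the level was 3422, 3345, 5495 and 2363 CPM. The highest single Sftpc-high cell of the 3-month PBS library held 8741 of the 52018 Scgb1a1 counts there.

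The cells were then thinned to 2000 UMIs each, which left out 74 Sftpc-high cells of the 12-month PBS library, 96 of the 3-month PBS library and none of the bleomycin libraries. The median Sftpc-high cell held 4 Scgb1a1 UMIs in 12-month bleomycin, 5 in 3-month bleomycin, 7 in 12-month PBS and 4 in 3-month PBS. The medians in leukocyte or endothelial barcodes were 4, 5, 3 and 2, the last over only 6 barcodes. The highest of these barcodes in 12-month bleomycin held 221 Scgb1a1 UMIs, where their 99th percentile was 11.3. At least 1 UMI was found in 98.1%, 99.3%, 98.8% and 97.7% of Sftpc-high cells. The shares of leukocyte or endothelial barcodes were 97.2%, 100%, 97.1% and 100%, so detection did not set the classes apart. At least 10 UMIs were found in 9.84%, 10.5%, 37.9% and 8.09% of Sftpc-high cells in the same order of libraries, against 2.45%, 2.35%, 0% and 0% of leukocyte or endothelial barcodes. The 12-month PBS library was higher at the 75th percentile, with 14 UMIs against 6 in 3-month PBS, and at the 90th, with 24 against 9. It did not lead at the 99th percentile, which was 123 UMIs in 12-month bleomycin, 82.0 in 3-month bleomycin, 113 in 12-month PBS and 47.9 in 3-month PBS. In 12-month bleomycin the 75th percentile was 6 and in 3-month bleomycin it was 7.

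**Figure D2:**
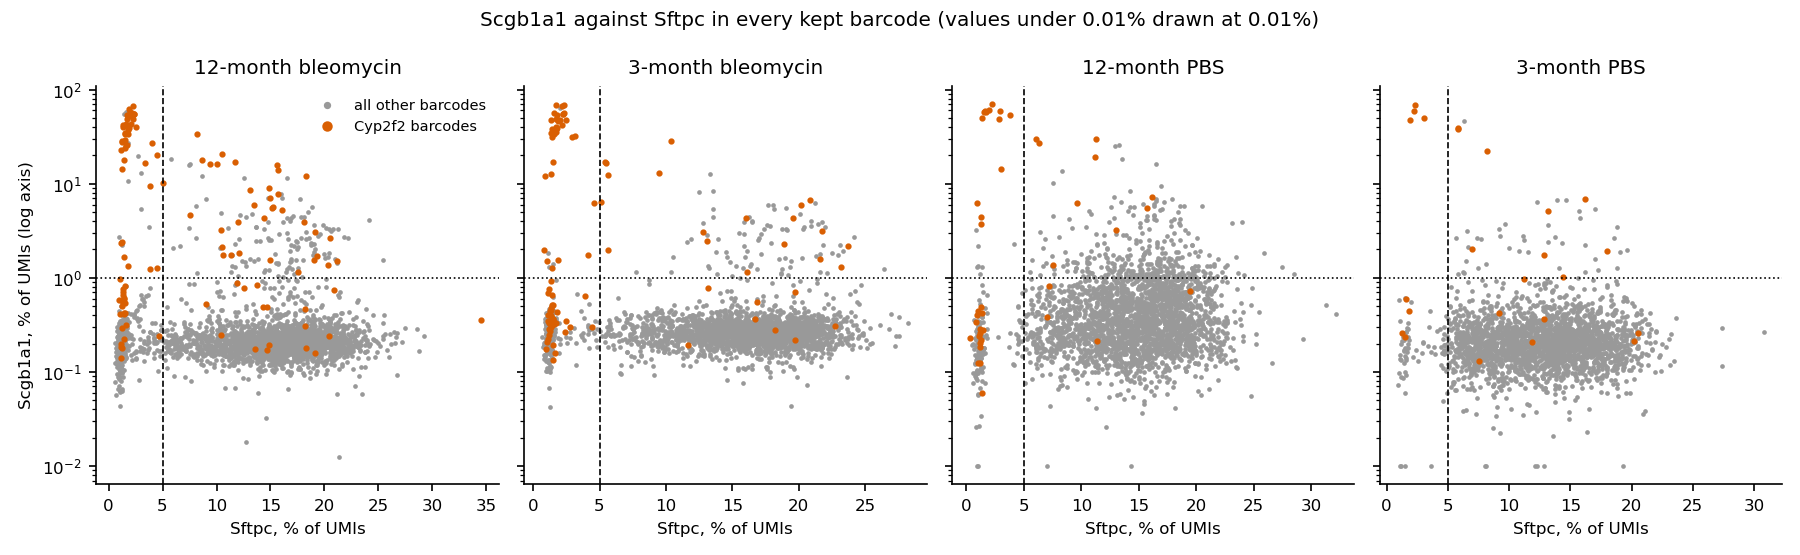
Scgb1a1 against Sftpc, both as % of a barcode's UMIs (Scgb1a1 on a log axis), 1 point per kept barcode; orange points hold at least 0.1% of UMIs and 3 UMIs of Cyp2f2, the dashed line is the 5% limit on Sftpc and the dotted line 1% Scgb1a1. Most Sftpc-high cells formed a narrow band in 3 libraries and a broad one in 12-month PBS, where 13.0% of Sftpc-high cells lay above 1%.

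Sftpc-high cells with Scgb1a1 at 1% of UMIs or more numbered 150 in 12-month bleomycin (6.12%, exact binomial interval 5.21 to 7.15), 98 in 3-month bleomycin (4.26%, 3.47 to 5.17), 333 in 12-month PBS (13.0%, 11.7 to 14.3) and 49 in 3-month PBS (2.12%, 1.57 to 2.80). The share was above the counting interval of each other library in 12-month PBS. Of these cells 34, 19, 9 and 9 also passed the Cyp2f2 limit, and 3, 3, 7 and 1 were among the barcodes called as doublets. Sftpc stood at 153415 CPM in them against 156998 CPM in the rest in 12-month bleomycin, at 155221 CPM against 151011 CPM in 12-month PBS, and at 118641 CPM against 133452 CPM in 3-month PBS. Cyp2f2 reached 680 CPM against 128 CPM in 12-month bleomycin, and 194 CPM against 60.1 CPM in 12-month PBS. Club-like cells as a class are the Cyp2f2 barcodes among other cells, where Scgb1a1 alone made up 278820 CPM in 12-month bleomycin, 294299 CPM in 3-month bleomycin, 342900 CPM in 12-month PBS and 411245 CPM in 3-month PBS.

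Between libraries, Scgb1a1 in Sftpc-high cells was 1.38-fold lower in bleomycin than in PBS at 12 months (log2 ratio -0.47, 95% interval -0.48 to -0.46) and differed little at 3 months (-0.08, -0.10 to -0.06). The sign at 3 months turned under other settings: without each library's top 1% of cells the value was 0.50 on the log2 scale, and it was 0.60 with the Sftpc limit at 2% and 0.56 with it at 10%. At 12 over 3 months the log2 ratio of Scgb1a1 was 0.20 in bleomycin and 0.59 in PBS. Without the top 1% of cells these log2 ratios were 0.03 in bleomycin and 1.22 in PBS.

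Scgb3a1 and Scgb3a2, the other airway secretoglobins, were not separated from free RNA by CPM in the summed profile of Sftpc-high cells of any library. Scgb3a1 had 24.6, 53.3, 6.77 and 10.6 CPM in 12-month bleomycin, 3-month bleomycin, 12-month PBS and 3-month PBS. Its level in leukocyte or endothelial barcodes was 29.5 and 56.2 CPM in 12-month and 3-month bleomycin, with 0 counts in both PBS libraries, where 3 counts would be 14.7 and 67.9 CPM. Scgb3a2 had 36.8, 52.9, 15.5 and 55.5 CPM in Sftpc-high cells, against 44.0, 36.7, 4.89 and 0 CPM in leukocyte or endothelial barcodes. The highest of these barcodes in 12-month bleomycin held 11 Scgb3a2 UMIs at matched depth, where 8.39% of them held any. Their 44.0 CPM may therefore hold more than free RNA. The counting interval of the ratio between the classes held 1 wherever both held counts, and elsewhere 0 counts in the leukocyte or endothelial barcodes allowed a level above that of Sftpc-high cells. This holds for the sums only. In Sftpc-high cells with Scgb1a1 at 1% of UMIs or more, Scgb3a2 stood at 199, 178, 38.5 and 1067 CPM in the same order of libraries. In the rest of the Sftpc-high cells it stood at 25.3, 46.0, 11.9 and 28.1 CPM.

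The ratios between libraries for this pair therefore describe summed counts that as a whole are not separated from free RNA. Scgb3a1 was 3.64-fold (2.92 to 4.58) higher in bleomycin than in PBS at 12 months and 5.01-fold (4.13 to 6.11) higher at 3 months. Scgb3a2 was 2.37-fold (2.05 to 2.77) higher in bleomycin at 12 months, while its 3-month log2 ratio was -0.07 (-0.21 to 0.08). Of its 605 counts in 3-month PBS Sftpc-high cells, 271 came from 1 cell. The 3-month log2 ratio of Scgb3a2 was 0.64 with the Cyp2f2 barcodes left out, and with the Sftpc limit at 2% it was 1.56 and counted as higher. At 12 over 3 months Scgb3a2 was 1.44-fold lower in bleomycin and 3.58-fold lower in PBS (log2 -1.84, or -0.98 without the Cyp2f2 barcodes). Scgb3a1 was 2.16-fold lower in bleomycin and 1.57-fold lower in PBS.

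The counts of Scgb1c1 lay mostly in Sftpc-high cells and were spread over them. Cyp2f2 barcodes among other cells held 106 of its counts in 12-month bleomycin, 141 in 3-month bleomycin, 51 in 12-month PBS and 19 in 3-month PBS. Their totals were 895573, 949707, 276180 and 77686 UMIs. Per UMI this was more than in Sftpc-high cells in both bleomycin libraries and, on 19 counts, in 3-month PBS. In 12-month PBS it was less. Sftpc-high cells reached 73.6 CPM of Scgb1c1 in 12-month bleomycin, 107 CPM in 3-month bleomycin, 244 CPM in 12-month PBS and 190 CPM in 3-month PBS. Leukocyte or endothelial barcodes held 9.67, 12.2, 4.89 and 0 CPM. The ratio to them was 7.61-fold (5.01 to 12.2) in 12-month bleomycin, 8.74-fold (3.74 to 26.9) in 3-month bleomycin, 49.9-fold (8.95 to 1972) in 12-month PBS from 1 count, and at least 2.81-fold in 3-month PBS.

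Both PBS libraries were above both bleomycin libraries. Scgb1c1 was 3.31-fold (3.14 to 3.50) lower in bleomycin than in PBS at 12 months and 1.78-fold (1.68 to 1.89) lower at 3 months. At matched depth it was found in 13.2%, 20.1%, 37.6% and 31.4% of Sftpc-high cells, and the top 1% of cells held only 7.81%, 7.01%, 5.55% and 5.98% of its counts. Before thinning the shares were 51.3%, 52.9%, 63.2% and 53.8%. With age it was 1.45-fold lower at 12 than at 3 months in bleomycin and 1.28-fold higher in PBS. An exon of the antisense gene C330022C24Rik overlaps the gene, and whether the authors' counting used strand is not given in the sources used here. The other 30 genes of the files whose symbols begin with Scgb had 0 counts in all 4 libraries.

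In Sftpc-high cells Retnla was higher in both 12-month libraries, and there its counts came mostly from a small set of these cells. It had 429 CPM in 12-month bleomycin, 63.7 CPM in 3-month bleomycin, 291 CPM in 12-month PBS and 11.6 CPM in 3-month PBS. Leukocyte or endothelial barcodes held 161, 44.0, 39.1 and 0 CPM, and 136 of the 366 counts in 12-month bleomycin came from 1 barcode. The ratio to them was 2.67-fold (2.40 to 2.97) in 12-month bleomycin and 7.45-fold (3.78 to 17.3) in 12-month PBS. In 3-month bleomycin it was 1.45-fold with an interval that holds 1 (0.911 to 2.45), so the summed level there is not separated from free RNA. In 3-month PBS the 0 counts leave it unseparated. Both statements hold for the sums only. At matched depth the highest Sftpc-high cell of 3-month bleomycin held 33 Retnla UMIs. No leukocyte or endothelial barcode there held more than 1.

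The 1% of Sftpc-high cells with the most Retnla held 60.1% of its counts in 12-month bleomycin, 36.0% in 3-month bleomycin, 75.5% in 12-month PBS and 63.5% in 3-month PBS. Single cells reached 1973, 104, 478 and 11 counts. Sftpc-high cells with Retnla at 0.1% of UMIs or more numbered 84 (3.43%, 2.74 to 4.23), 10 (0.435%, 0.209 to 0.798), 56 (2.18%, 1.65 to 2.82) and 6 (0.260%, 0.0955 to 0.565). They held 70.6%, 26.0%, 82.6% and 33.3% of the counts, and the rest of the cells stood at 131, 47.3, 52.0 and 7.73 CPM.

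Few of these Retnla-rich cells were Cyp2f2 barcodes, but in 3 of the 4 libraries their Scgb1a1 level was above that of the rest. Of the 84, 10, 56 and 6 cells, 2, 2, 0 and 0 passed the Cyp2f2 limit, 14, 3, 10 and 0 were also rich in Scgb1a1, and 1, 0, 0 and 0 were called as doublets. Scgb1a1 stood at 8023 CPM in the Retnla-rich cells against 5075 CPM in the rest in 12-month bleomycin, at 59405 against 4218 CPM in 3-month bleomycin, and at 13614 against 7017 CPM in 12-month PBS. In 3-month PBS it was 3192 against 4778 CPM. In 12-month bleomycin 14 of the 84 Retnla-rich cells were rich in Scgb1a1, against 136 of the 2366 in the rest, and in 12-month PBS 10 of 56 were, against 323 of 2514. Their Sftpc level was 157009 CPM against 156752 CPM in the rest of the 12-month bleomycin cells, and 149051 CPM against 151650 CPM in 12-month PBS. Pigr was 38.3 CPM in them against 21.6 CPM in the rest in 12-month bleomycin, and 68.9 CPM against 29.1 CPM in 12-month PBS. Lcn2, the iron-scavenging lipocalin 2, was 1659 CPM against 916 CPM in 12-month PBS but 4739 CPM against 4809 CPM in 12-month bleomycin.

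In Sftpc-high cells Retnla was 6.74-fold (6.37 to 7.14) higher at 12 than at 3 months in bleomycin and 25.2-fold (21.1 to 30.3) higher in PBS. The bleomycin value, 2.75 on the log2 scale, was 1.53 with the Sftpc limit at 2% and 2.07 without each library's top 1% of cells. In bleomycin over PBS it was 1.47-fold (1.42 to 1.53) higher at 12 months and 5.50-fold (4.58 to 6.66) higher at 3 months. Without each library's top 1% of cells the log2 ratio of bleomycin over PBS was 1.26 at 12 months, against 0.56 with them, and 3.27 at 3 months, against 2.46. At matched depth Retnla was found in 23.8%, 8.74%, 11.2% and 1.67% of Sftpc-high cells, against 18.2%, 4.71%, 2.94% and 0 of 6 leukocyte or endothelial barcodes, so in 12-month bleomycin the share was close to that in leukocyte or endothelial barcodes. At least 5 UMIs were found in 1.88%, 0.174%, 1.48% and 0.0904% of Sftpc-high cells, and in 1.05%, 0%, 0% and 0% of leukocyte or endothelial barcodes. Retnlg, a resistin-like gene 82.8% identical to Retnla over 599 bases, could share reads with it.

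**Figure D3:**
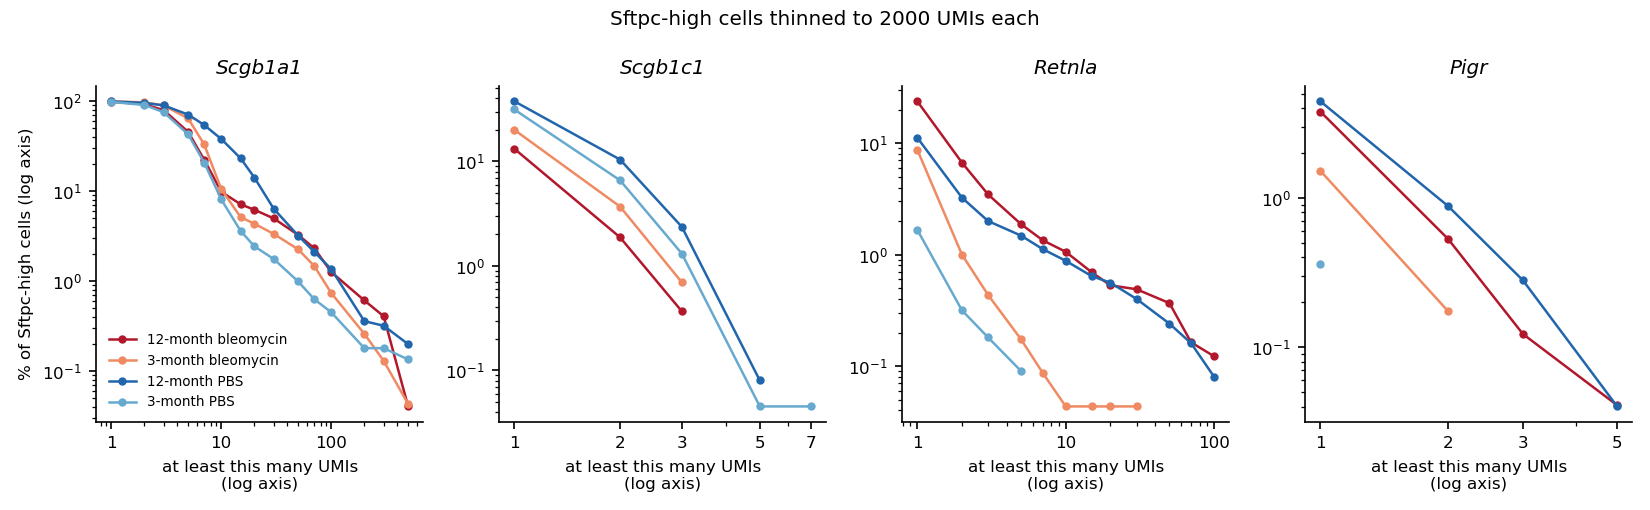
Share of Sftpc-high cells (log axis) with at least the number of UMIs on the horizontal axis (log) for 4 genes, after each cell was thinned to 2000 UMIs; 1 line per library, drawn down to the last number that any cell reached. The Scgb1a1 line of 12-month PBS ran above the rest from 5 to 30 UMIs, both 12-month lines led for Retnla and Pigr, and both PBS lines led for Scgb1c1 at 1 UMI.

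In Sftpc-high cells Pigr was higher at 12 months in both treatments. In the other cells after bleomycin it was instead 2.41-fold (1.90 to 3.06) lower at 12 than at 3 months, at 25.9 against 62.4 CPM. That log2 ratio was -1.27, and 0.20 without the Cyp2f2 barcodes. Pigr had 15.6%, 46.7%, 3.62% and 16% of its counts in other cells in 12-month bleomycin, 3-month bleomycin, 12-month PBS and 3-month PBS. Its counts in Sftpc-high cells were 707 in 12-month bleomycin (22.2 CPM), 177 in 3-month bleomycin (8.50 CPM), 399 in 12-month PBS (30.02 CPM) and 21 in 3-month PBS (1.93 CPM). Both 12-month libraries were above both 3-month libraries. The leukocyte or endothelial barcodes held 2 counts in 12-month bleomycin and 0 in the other libraries. The ratio to them was 25.2-fold (6.96 to 209) in 12-month bleomycin from those 2 counts and at least 2.05-fold in 12-month PBS, and at 3 months the depth of those barcodes does not separate the classes.

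In Sftpc-high cells Pigr was 2.61-fold (2.21 to 3.10) higher at 12 than at 3 months in bleomycin and 15.6-fold (10.1 to 25.4) higher in PBS. Bleomycin over PBS gave 1.35-fold (1.19 to 1.53) lower Pigr at 12 months and 4.41-fold higher Pigr at 3 months, where neither library reached 20 CPM. At matched depth Pigr was found in 3.80%, 1.52%, 4.45% and 0.362% of Sftpc-high cells, and in 16.7%, 5.83%, 9.57% and 0.867% before thinning. Leukocyte or endothelial barcodes showed it in 0 cells at matched depth, of 286, 85, 34 and 6. Jchain, which joins the IgA dimers that Pigr carries and which plasma cells make, stood at 100.3 CPM in 12-month bleomycin against 0.226 CPM (3 counts) in 12-month PBS, and at 8.93 CPM in 3-month bleomycin. Its level in the other cells of 12-month bleomycin was 8965 CPM, 89.3-fold that in Sftpc-high cells, and the part of free RNA in the Sftpc-high value was not tested.

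Reg3g was nearly absent from Sftpc-high cells, with 15, 8, 2 and 3 counts, never more than 1 in a cell. In other cells it had 350 counts in 12-month bleomycin, 91 in 3-month bleomycin, 18 in 12-month PBS and 4 in 3-month PBS. These lay in 6, 4, 1 and 1 cells, and 1 cell held 249, 56, 18 and 4 of them, so the ratios between libraries describe single cells. Reg3g is 77.0% identical to Reg3b over 548 bases.

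Muc1 was the most evenly spread member and the one that moved alike at both ages. Its level in Sftpc-high cells was 651 CPM in 12-month bleomycin, 733 CPM in 3-month bleomycin, 394 CPM in 12-month PBS and 449 CPM in 3-month PBS. Both bleomycin libraries were above both PBS libraries. Bleomycin over PBS gave 1.65-fold at 12 months (log2 0.72) and 1.63-fold at 3 months (log2 0.71), under the 2-fold limit used for calls. The 12-month libraries were 1.13-fold lower than the 3-month ones in bleomycin and 1.14-fold lower in PBS. The top 1% of cells held 3.24%, 3.45%, 3.80% and 4.15% of the counts. At matched depth Muc1 was found in 71.6%, 74.9%, 54.8% and 58.8% of Sftpc-high cells, against 13.6%, 11.8%, 5.88% and 0 of 6 leukocyte or endothelial barcodes. Before thinning the shares in Sftpc-high cells were 99.1%, 98.1%, 82.5% and 84.3%. Its level was 7.87, 13.0, 10.1 and 9.93 times that in leukocyte or endothelial barcodes.

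Set side by side, the members were counted as higher or lower when at least 1 of the 2 summed profiles reached 20 CPM, the ratio was 2-fold or more and its counting interval did not hold 1. For bleomycin over PBS in Sftpc-high cells at 12 months, 2 of the 7 members at 20 CPM were higher (Scgb3a1 and Scgb3a2) and 1 was lower (Scgb1c1). Of all genes tested there, 6.98% were higher and 3.96% lower, 10.9% together. At 3 months 2 of 6 members were higher (Scgb3a1 and Retnla) and 0 lower, where 2.71% of genes were higher and 3.34% lower, 6.05% together. The median log2 ratio over all 8 members was 0.64 at 12 months beside 0.10 over all genes tested, and 0.59 beside -0.01 at 3 months. The member medians include members under 20 CPM, which the medians over genes tested leave out. For 12 over 3 months in bleomycin, 2 of 7 members were higher (Retnla and Pigr) and 1 lower (Scgb3a1), where 2.12% of genes were higher and 0.458% lower, 2.57% together. In PBS 2 of 6 members were higher (Retnla and Pigr) and 1 lower (Scgb3a2), where 0.862% of genes were higher and 0.795% lower, 1.66% together. The median over all 8 members, again with those under 20 CPM, was 0.01 in bleomycin beside 0.00 over all genes tested. In PBS it was 0.09 beside -0.11. The summed levels of Scgb3a1 and Scgb3a2 in every library, and of Retnla and Pigr in both 3-month libraries, were not separated from free RNA. The calls of these genes carry that limit. Since the members were chosen with these levels known, nothing is read from these shares.

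**Figure D4:**
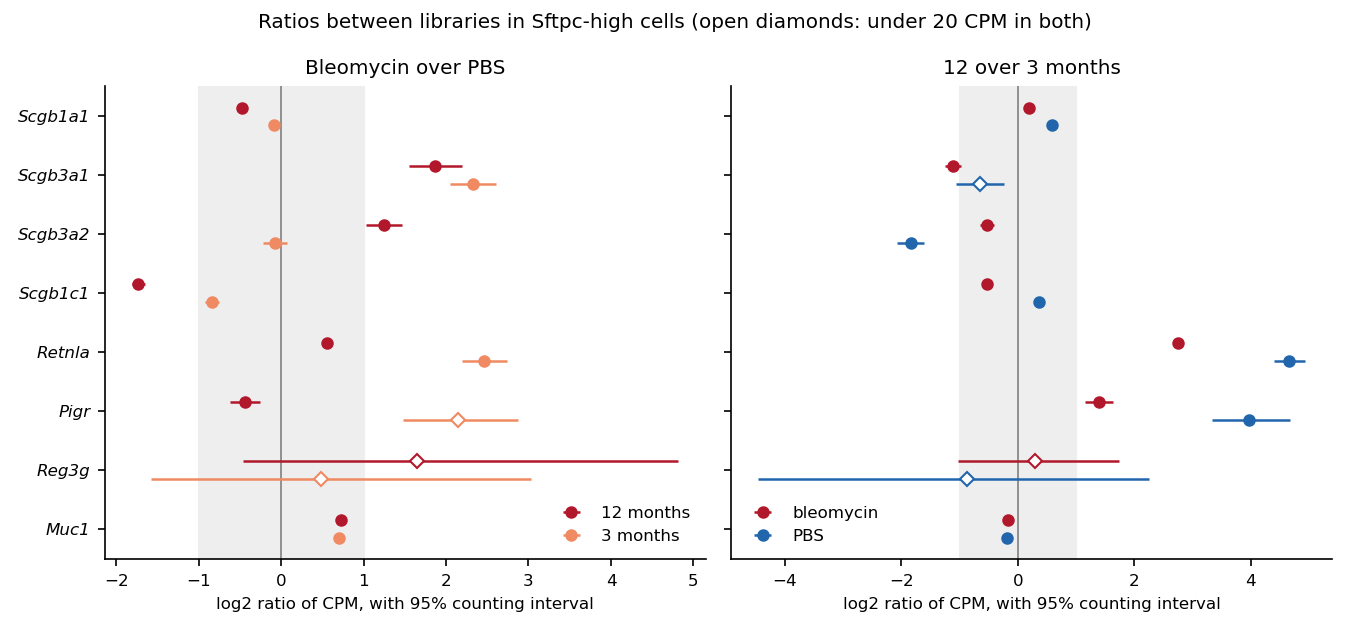
Log2 ratio of each member in Sftpc-high cells for bleomycin over PBS (left) and 12 over 3 months (right), with 95% counting intervals; the grey band spans ratios under 2-fold and open diamonds mark genes under 20 CPM in both libraries. Retnla and Pigr were to the right for age in both treatments, and Scgb1c1 was the only member to the left of the band for bleomycin over PBS, at 12 months.

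The bleomycin ratio differed by 1 or more on the log2 scale between the ages for 3 members of Sftpc-high cells, where 4.03% of all genes did. The 12-month minus 3-month difference was 1.32 (1.06 to 1.57) for Scgb3a2, -1.90 (-2.17 to -1.63) for Retnla and -2.58 (-3.25 to -1.90) for Pigr. The Scgb3a2 value was below 1 without the Cyp2f2 barcodes (0.20), at Sftpc limits of 2% (-0.33) and 10% (0.22), with equal weight per cell (0.68), after thinning to 3000 UMIs (0.91) and without each library's top 1% of cells (0.38). Scgb1a1, at -0.39, passed 1 with the Sftpc limit at 10% (-1.15) and without the top 1% of cells (-1.18), so with the 10% limit the count of 3 holds Scgb1a1 in place of Scgb3a2. Muc1 gave 0.02 (-0.05 to 0.08), a difference of at most 0.08 within counting error. Both ages' ratios have their own PBS library as denominator, and the levels of all 4 libraries enter each difference. The 3-month PBS levels rest on 126 counts of Retnla and 21 counts of Pigr.

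In other cells the secretoglobin values were those of few airway barcodes, and with sums over cells, fewer cells of a type and less RNA per cell cannot be told apart. Cyp2f2 barcodes made up 65 of 543 other cells in 12-month bleomycin, 71 of 325 in 3-month bleomycin, 29 of 175 in 12-month PBS and 8 of 86 in 3-month PBS. The other cells as a whole held 62.6%, 75.3%, 50.7% and 38.5% of each library's Scgb1a1 counts, and 89.4%, 88.4%, 89.3% and 47.5% of its Scgb3a1 counts. For Scgb3a2 these shares were 88.9%, 91.4%, 89.7% and 42.7%. Muc1 had 5.65%, 5.55%, 2.71% and 2.22% of its counts there, and Scgb1c1 7.06%, 7.29%, 2.79% and 2.08%. Retnla differed between treatments, with 39.4% and 83.1% of its counts in other cells after bleomycin at 12 and 3 months, against 7.32% and 6.67% in PBS. In Cyp2f2 barcodes among other cells Retnla reached 8329 CPM in 12-month bleomycin, 6769 CPM in 3-month bleomycin, 811 CPM in 12-month PBS and 116 CPM in 3-month PBS. These values rest on few cells: 1 cell held 1749 of the 7459 Retnla counts in 12-month bleomycin, 2058 of 6429 in 3-month bleomycin, 194 of 224 in 12-month PBS and 5 of 9 in 3-month PBS. Over all other cells, the top 5 cells held 57.9% of the Retnla counts in 12-month bleomycin and the top 3 held 62.2% in 3-month bleomycin, and without them the level there was 738 and 990 CPM. Scgb3a1 reached 6734, 8853, 2716 and 1339 CPM in Cyp2f2 barcodes among other cells, and 1 cell held 3791 of 6031, 3657 of 8408, 746 of 750 and 98 of 104 counts.

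For bleomycin over PBS in other cells at 12 months, 2 of 8 members were higher and 2 lower, where 8.08% of genes tested were higher and 10.4% lower, 18.5% together. At 3 months 5 of 8 were higher and 0 lower, where 8.55% of genes were higher and 5.87% lower, 14.4% together. For 12 over 3 months in bleomycin, 0 of 8 were higher and 5 lower, where 6.26% of genes were higher and 7.48% lower, 13.7% together. In PBS 2 of 7 were higher and 0 lower, where 6.42% were higher and 4.56% lower, 11% together. The member values there turn on the airway barcodes: with the Cyp2f2 barcodes left out, the Scgb1a1 ratio of 12 over 3 months in bleomycin was 0.42 on the log2 scale, against -1.08 with them.

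Other cells over Sftpc-high cells in 12-month bleomycin gave 5 higher and 2 lower of 8 members, where 17.6% of genes were higher and 6.25% lower, 23.9% together. In 3-month bleomycin 6 of 8 were higher and 1 lower, where 19.2% of genes were higher and 3.91% lower, 23.1% together. In 12-month PBS 4 of 8 were higher and 2 lower, where 22.9% were higher and 4.57% lower, 27.5% together. In 3-month PBS 3 of 6 were higher and 0 lower, where 14.4% were higher and 2.16% lower, 16.6% together. Muc1 and Scgb1c1 were lower in other cells in all 4 libraries: Muc1 by 2.66-fold, 2.03-fold, 2.26-fold and 1.63-fold, and Scgb1c1 by 2.09-fold, 1.52-fold, 2.19-fold and 1.74-fold in the same order of libraries. With the Cyp2f2 barcodes left out, Scgb1a1 in the other cells of both PBS libraries was below its level in Sftpc-high cells, at log2 -0.039 in 12-month PBS and -0.84 in 3-month PBS.

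Genes of related pathways were followed in Sftpc-high cells. Of 17 secreted defence proteins, 10 reached 20 CPM for bleomycin over PBS at 12 months, with 4 higher and 1 lower, where 6.98% of all genes tested were higher and 3.96% lower. At 3 months 8 did, with 3 higher and 0 lower, where 2.71% of genes were higher and 3.34% lower. The list's median log2 ratio was 0.87 at 12 months and 0.49 at 3 months, beside 0.10 and -0.01 over all genes tested. The gene that was lower, named after its value was seen, was Lyz1, a lysozyme at 5312 CPM in bleomycin against 10981 CPM in PBS at 12 months. Lcn2 was 5.14-fold (5.05 to 5.24) higher at 12 months and 7.59-fold (7.31 to 7.89) at 3 months, and Chil1, a chitinase-like protein, 2.62-fold and 4.99-fold. Slpi, an inhibitor of neutrophil elastase, was 3.50-fold (3.33 to 3.68) higher at 3 months. S100a8 and S100a9, the calprotectin subunits that neutrophils make in quantity, were 10.2-fold and 5.33-fold higher at 12 months, at 37.7 CPM and 30.5 CPM in bleomycin. Both were counted as higher in the other cells of 12-month bleomycin than in its Sftpc-high cells. The part of free RNA or leftover leukocytes in their values was not tested. Lcn2 was also 3.65-fold higher at 12 than at 3 months in PBS, and Chil1 stood at 664 CPM in 12-month PBS against 184 CPM in 3-month PBS.

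Of 10 receptors and targets of IL-17 and IL-22, 4 of 7 at 20 CPM were higher in bleomycin at 12 months and 3 of 6 at 3 months, with none lower, where 6.98% and 2.71% of all genes tested were higher. The list's median log2 ratio was 1.05 and 0.87, beside 0.10 and -0.01 over all genes tested. Saa3, an acute-phase serum amyloid, was 11.6-fold (8.56 to 16.1) and 32.6-fold (18.6 to 63.5) higher, and the chemokine gene Cxcl1 5.29-fold and 5.11-fold. Of 12 type 2 response and resistin-like genes, Il4ra, a chain of the IL-4 and IL-13 receptors, was 3.43-fold (2.85 to 4.15) higher at 12 months and 3.12-fold (2.56 to 3.82) at 3 months. Retnlg was 6.79-fold higher at 12 months, and no other gene of that list was called among the 4 at 20 CPM at either age. In 12-month bleomycin Retnlg stood at 42.9 CPM in Sftpc-high cells against 91.3 CPM in other cells, and the part of free RNA was not tested. In the list for immunoglobulin transport, the interferon factor Irf1 was 2.19-fold (1.88 to 2.56) higher at 12 months beside Jchain, which were 2 of the 3 genes at 20 CPM. Among 5 membrane mucins other than Muc1, Muc20 was 2.87-fold (2.45 to 3.38) higher at 12 months and was the only one at 20 CPM. For all of these lists the share of genes tested that were higher is the same, 6.98% at 12 months and 2.71% at 3 months.

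None of 12 gel-forming mucin and goblet cell genes, Muc5b and Muc5ac among them, reached 20 CPM in Sftpc-high cells in any of the 4 comparisons between libraries. In the other cells of 12-month bleomycin the goblet cell gene Itln1 had 416 counts against 1 in 12-month PBS and Clca1 248 counts against 0. These are raw counts, out of 5061541 from 543 cells in bleomycin and 836437 from 175 cells in PBS. Of this list 3 of 3 genes at 20 CPM were higher there, beside 8.08% of all genes tested. Of 7 factors known on secretoglobin promoters, 6 were in the files and 5 reached 20 CPM. Foxa1 was 2.55-fold (2.29 to 2.83) lower in bleomycin than in PBS at 12 months and 2.14-fold (1.94 to 2.37) at 3 months. Cebpb was 2.10-fold (1.99 to 2.22) lower at 3 months, and none of the factors was higher. Over all genes tested, 3.96% were lower at 12 months and 3.34% at 3 months. Of 8 club cell markers, 5 reached 20 CPM at 12 months, where Cyp2f2 was 2.10-fold and Gsto1 3.73-fold higher and Cbr2 4.04-fold lower. Of all genes tested there, 6.98% were higher and 3.96% lower. At 3 months 0 of 4 at 20 CPM were called, beside 6.05% of all genes tested.

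Likeness to other genes was measured as Pearson's r of log2(CPM + 1) over the 8 summed profiles, among 7067 genes. With 8 points that fall into 2 classes of cells and share libraries, r was above 0.87 for every nearest gene and is given as a description only. Nearest to Retnla were Cfb (0.96), Ilvbl (0.96) and C3 (0.95), of which Cfb and C3 encode complement proteins. Nearest to Pigr was Retnla (0.91), then Chmp2a (0.88) and Pros1 (0.88). Scgb1c1 was nearest to Atp7b (0.99), Cobl (0.98) and Bex2 (0.98), and Muc1 to Snx7 (0.98), Fam69b (0.98) and Gstt1 (0.97). Nearest to Scgb1a1 were Tnn (0.998), Map1b (0.997) and Agr3 (0.995). For Scgb3a1, Scgb3a2 and Reg3g, whose counts lay in few other cells, the nearest were Dnajc8, Wasf2 and Abcg1, all at 0.99.

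Cells next to the 5% limit on Sftpc were few. Between 5% and 6% there were 39 cells in 12-month bleomycin, 23 in 3-month bleomycin, 32 in 12-month PBS and 72 in 3-month PBS, and between 4% and 5% there were 26, 16, 20 and 26. Muc1 stood at 625, 712, 530 and 523 CPM just inside the limit and at 601, 755, 379 and 354 CPM just outside. Scgb1a1 stood at 3894, 26441, 4221 and 45997 CPM inside and at 18392, 10753, 2919 and 1893 CPM outside.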

How the data were processed

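Per the labels, cells were sorted by GFP without CD45 or CD31 and made into 10x Genomics 3' libraries. The submitters' processing notes name Cell Ranger, Seurat 3.2.2 and mm10, without the steps. The deposited tables hold UMI counts per gene and barcode, with no normalization by the authors that the values show, for 27998 genes in 4 libraries.

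Barcodes with 500 or more genes and at most 20% mt- UMIs were kept and split at Sftpc 5% of UMIs. Counts of each gene were summed per library and class and divided by the class total, giving CPM of 8 profiles, with exact 95% Poisson intervals. Ratios have exact conditional binomial intervals, and the difference between ages has a Wald interval. UMIs are counted molecules, but cells of 1 library are not replicates, so intervals and the limit of 3 counts for a count of 0 cover counting error only, and no p-value was computed. Shares have exact Clopper-Pearson intervals. Depth was compared by thinning cells to 2000 UMIs. Leukocyte, endothelial and ciliated barcodes held at least 0.2% of UMIs and 3 UMIs in the markers of that type, and Cyp2f2 barcodes 0.1% and 3 UMIs in Cyp2f2. Scrublet in scanpy 1.11.5 scored doublets, and the highest scores were called at 0.8% per 1000 barcodes; they were kept, apart from 1 alternative. The ratio intervals and calls were run on simulated data before use. Those data were drawn from the Poisson model that the intervals assume, so the run does not cover counts clumped in few cells. Other tools were Python 3.11.15, numpy 2.4.6, scipy 1.17.1, pandas 2.3.3, matplotlib 3.10.9 and BLAST 2.17.0 for close copies. Of 27998 gene IDs, 27645 were found in GENCODE M21 (GRCm38), and upstream sequences are RefSeq's.

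The members and the gene lists were chosen with earlier results of these data known. The text names all 8 members, up to 4 genes of each list per comparison with the largest log2 ratio among those called, and the 3 genes nearest to each member. Lyz1 is outside this rule. The alternatives tried were 2 other scalings, 2 other cell filters, Sftpc limits of 2% and 10%, equal weight per cell, thinning to 2000 and 3000 UMIs, leaving out doublets, gated barcodes or Cyp2f2 barcodes, other minima and a 1.5-fold limit.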

Additional observations from a re-analysis of the deposited data

Results flagged for a closer look

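For some members the ratio had opposite signs in the 2 ages or treatments. With 1 library a group the difference was not tested against replicates. In Sftpc-high cells the Pigr log2 ratio of bleomycin over PBS was -0.44 at 12 months and 2.14 at 3 months. The Scgb1c1 log2 ratio of 12 over 3 months was -0.54 in bleomycin and 0.36 in PBS.

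In other cells the log2 ratio of bleomycin over PBS at 12 and at 3 months was -1.11 and 0.51 for Scgb1a1, and -0.21 and 2.07 for Scgb3a2. There the log2 ratio of 12 over 3 months in bleomycin and in PBS was -1.08 and 0.53 for Scgb1a1, -1.39 and 1.78 for Scgb3a1, -1.35 and 0.93 for Scgb3a2, and -0.58 and 4.03 for Retnla.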

How the results depend on the processing

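Of 480 log2 ratios of members in Sftpc-high cells recomputed under the alternatives, 455 kept their sign, 25 did not and 40 moved by over 1.5 times. Of the 25, 7 were the 3-month bleomycin ratio of Scgb1a1 (-0.08, turned to between 0.0083 and 0.60) and 7 that of Scgb3a2 (-0.07, turned to between 0.019 and 1.56). A further 4 were the Muc1 difference between ages (0.02, turned to between -0.083 and -0.038), 3 were Reg3g values, and 2 were the Scgb1a1 ratio of 12 over 3 months in bleomycin (0.20, turned to -0.28 and -0.0088). The last 2 were the differences between ages of Scgb3a1 (-0.46, turned to 0.75) and Scgb3a2, both at Sftpc 2%. No paired analysis was possible because each group is 1 library, and no library could be left out. Median-of-ratios scaling moved the median log2 ratio of all genes by 0.11 for 12 over 3 months in PBS Sftpc-high cells, by 0.21 in bleomycin other cells, and for other over Sftpc-high cells by -0.36 in 12-month bleomycin, -0.51 in 3-month bleomycin, -0.51 in 12-month PBS and -0.43 in 3-month PBS. The cause of the changes below was not tested.

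Of 195 counts of members called under the alternatives, 116 equalled the reported count, 52 changed by at most 1.5 times and 27 by more. The 27 were these. With a minimum of 100 CPM, Sftpc-high cells gave 1 and 0 for bleomycin over PBS at 12 and 3 months, 1 for age in bleomycin, 1 in PBS and 1 for the difference between ages, and other cells gave 3 at 3 months and 3 for age in bleomycin. At 1.5-fold the counts were 4 in Sftpc-high cells at 3 months, 4 for age in PBS other cells, and 5 for other over Sftpc-high cells in 3-month PBS, as they were with median-of-ratios scaling (5). Age in other cells of PBS gave 4 with the strict cell filter, 5 at Sftpc 10%, 1 with equal weight per cell and 1 after thinning to 2000 UMIs. Age in other cells of bleomycin gave 1 with equal weight, 1 and 3 after thinning to 2000 and 3000 UMIs, 2 without leukocyte, endothelial and ciliated barcodes, and 3 without Cyp2f2 barcodes. Bleomycin over PBS in other cells gave 2 at 12 months and 3 at 3 months after thinning to 2000 UMIs, and 3 at 3 months at 3000. Other over Sftpc-high cells in 12-month PBS gave 3 at Sftpc 10%. Without Cyp2f2 barcodes it gave 3 there, 1 in 3-month bleomycin and 1 in 3-month PBS.

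These called values turned sign, on the log2 scale. At Sftpc 2% the values were -0.50 for Reg3g at 3 months in other cells, -0.23 for Scgb3a1 in other over Sftpc-high cells of 3-month PBS, and -0.33 for the Scgb3a2 difference between ages. At 3000 UMIs Pigr and Reg3g in other cells at 3 months gave -0.21 and -0.97. Without Cyp2f2 barcodes, bleomycin over PBS in other cells gave 0.028 for Scgb1a1 at 12 months and -1.07 for Pigr at 3 months. Age in other cells gave 0.42 for Scgb1a1, 1.34 for Scgb3a1, 0.69 for Scgb3a2 and 0.20 for Pigr in bleomycin, and -0.79 for Scgb3a1 in PBS. Other over Sftpc-high cells gave -0.33 for Retnla in 12-month bleomycin, and -0.18 for Retnla and -0.48 for Pigr in 3-month bleomycin. In 12-month PBS it gave -0.039 for Scgb1a1, -1.93 for Scgb3a1 and -0.32 for Scgb3a2, and in 3-month PBS -0.84, -1.79 and -1.32 for the same genes. The values without each library's top 1% of cells were chosen after seeing the data. The 18 leukocyte or endothelial barcodes of 3-month PBS limit what can be set against free RNA there.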
